A study of Caenorhabditis elegans with 36 samples.

Results

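The transcriptional response to krill oil was examined in PD animals at adult day 3, by comparing 3 libraries of animals on krill oil with 3 libraries of control animals. The 6 libraries were taken by their labels (strain BY273, day 3 adult, krill oil or no treatment) from the 36 libraries of the series, and every gene with enough counts was described. PD animals are BY273 hermaphrodites, which carry integrated transgenes in which the dat-1 promoter drives GFP and α-synuclein, so that the human protein is made in dopaminergic neurons and not in other cells. The label of their genotype reads wild type, and both diets carry the same transgenes. All animals were kept on OP50 bacteria at 20°C without FdUrd, and from L4 the treated animals grew on medium with 0.5 μl/ml krill oil. After day 2 both groups were washed and passed through a nylon net every day to remove progeny. RNA came from whole worms, and the other libraries are wild type N2 animals and other ages of both strains, with 3 libraries in each group.

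Krill oil is rich in omega-3 fatty acids with long chains, and worms themselves make some of these, such as eicosapentaenoic acid. Much of the oil is carried as phospholipid, mostly phosphatidylcholine. Worms take up dietary fat in the intestine, which is also the main site of desaturation, β-oxidation, lysosomal breakdown and yolk production, and which expresses most lysozymes and lectins of the immune response. Desaturases, phosphatidylcholine synthesis and the methyl cycle are known to be adjusted to dietary lipid and vitamin supply.

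The 6 libraries held 22263173 to 27113646 counts, within the range of the series (16488713 to 34605080). Ribosomal RNA genes took 6.96%, 7.26% and 9.96% of the counts in the control libraries and 9.52%, 10.8% and 11.4% in the krill oil libraries. Libraries of the same diet correlated at 0.9905 to 0.995 over genes (Pearson r of log2 CPM, where CPM are counts scaled to the same library total), and libraries of different diets at 0.9687 to 0.9803. Control replicate 2 stood apart from the other controls. On the first principal component of the 500 most variable genes, which held 87% of the variance, it lay at -13.1, between the other controls (-30.6 and -34.8) and the krill oil libraries (24.5 to 27.1). For DEGs that were higher with krill oil its level lay a median of 13.8% of the way from the other controls to the krill oil mean, and for those in the cuticle, molting and hedgehog-related lists 25.8%. The counts of these lists are therefore given with and without it. Defining markers of intestine, hypodermis, muscle, germline and dopaminergic neurons were detected in every library. In whole animals, fewer cells of a type and less RNA per cell cannot be told apart.

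Krill oil changed the level of a large part of the transcriptome. Of 14588 genes tested, 3096 (21.2%) rose and 2909 (19.9%) fell at an adjusted p value below 0.05 in the quasi-likelihood test of edgeR, 41.2% in all. The numbers that rose and fell were 2337 and 1902 when all 36 libraries shared one fit, and 2218 and 2121 with DESeq2. Counts of genes that rose or fell in each list below are to be read beside the shares of 21.2% and 19.9%. With the added threshold of an absolute log2 fold change above 1, 1110 genes were DEGs (7.61%), of which 765 were higher (5.24%) and 345 lower (2.36%). Over all genes tested the log2 fold change had a median of 0.00252. Changes above 8-fold were found for 54 higher and 24 lower DEGs. The libraries of the diets did not overlap for 763 of the higher and 343 of the lower DEGs. Of all genes tested 27.1% and 25.5% showed no overlap in these directions. DEGs were called in these same libraries, so their separation largely follows from the call and is no independent support. The DEGs with overlapping diets were col-91, ifas-1, T10C6.19 and Y53F4B.48. Many DEGs were weakly expressed, since 482 of the higher and 231 of the lower had a mean below 5 CPM.

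**Figure D1:**
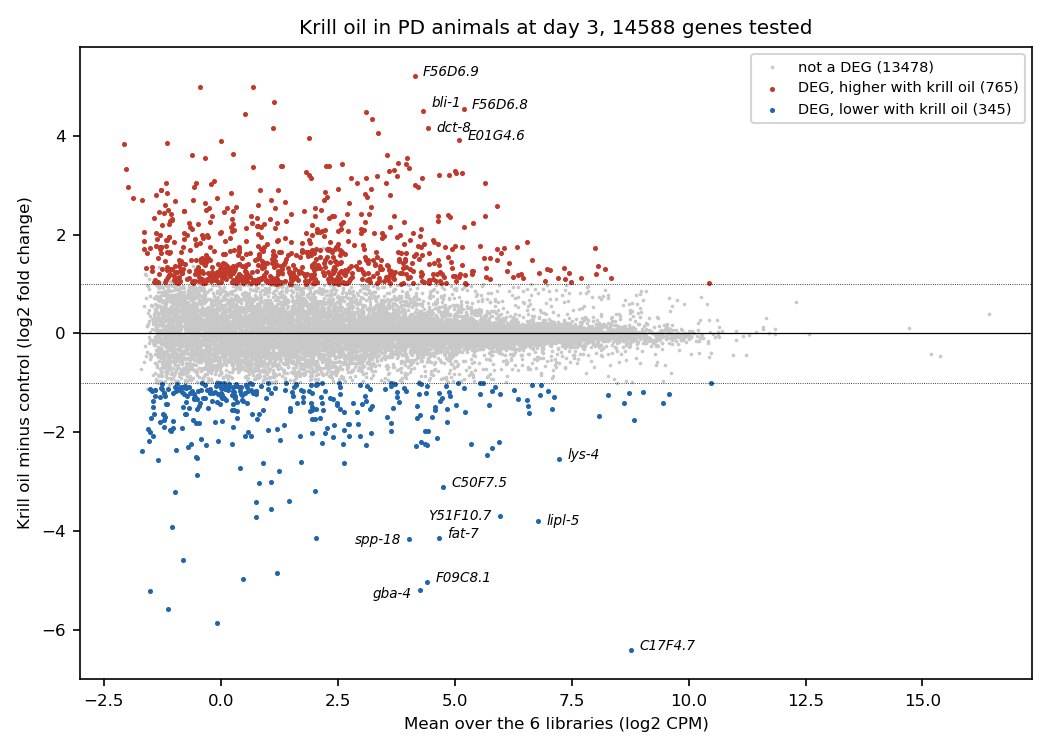
Log2 fold change (krill oil minus control) against the mean level in log2 CPM for the 14588 genes tested in PD animals at day 3, each point 1 gene. The 765 higher DEGs (red) and 345 lower DEGs (blue) lie outside the dotted lines at 1 and -1, and C17F4.7 stands lowest of the labelled genes at -6.42.

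Among genes with a mean of at least 5 CPM, the largest fall was that of C17F4.7 on chromosome II (3245087 to 3246015, WBcel235), a gene that the annotation used here does not assign a function. Its level was 897, 797 and 881 CPM in the controls and 8.39, 13.4 and 8.36 CPM on krill oil. Its log2 fold change was -6.42 ± 0.11 (SE, adjusted p value 4.57e-12). Next came gba-4, a homolog of the human lysosomal glucocerebrosidase, whose level was 39.2, 34 and 38.4 CPM in the controls and 1.02, 1.05 and 0.959 CPM on krill oil. The log2 fold change of gba-4 was -5.20 ± 0.11. F09C8.1 fell by 5.04 on the log2 scale, spp-18 (saposin-like) by 4.17, Y51F10.7 by 3.69, C50F7.5 by 3.11, the predicted chemoreceptor gene srh-237 by 2.62 and C14C6.5 by 2.32.

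Among the largest rises were 3 neighbouring genes on chromosome IV, F56D6.9 (3892327 to 3893326, plus strand), F56D6.8 (3894058 to 3894430, minus strand) and dct-8 (3895070 to 3895506, plus strand), which do not overlap. F56D6.9 was at 0.664, 1.35 and 0.691 CPM in the controls and at 35.4, 34.2 and 33.7 CPM on krill oil. F56D6.8 was at 2.89, 3.68 and 2.35 CPM in the controls and at 69.7, 69.6 and 70.7 CPM on krill oil. For dct-8, first described among genes controlled by DAF-16, the levels were 2.26, 2.26 and 2.39 CPM against 39.5, 42.7 and 40.8 CPM. In each of these genes the krill oil libraries differed little among themselves. The log2 fold changes were 5.22 ± 0.14, 4.53 ± 0.09 and 4.15 ± 0.08 (SE), with adjusted p values of 8.82e-11, 6.57e-12 and 6.41e-12 in the order given. Other large rises were those of the cuticle collagens bli-1, bli-2, lon-3, rol-8, sqt-2 and sqt-1, of E01G4.6 and F49E12.10, and of the saposin-like gene spp-9. The last had no counts in control replicates 1 and 3 and 2.4 CPM in control replicate 2, against 39.2, 8.63 and 6.06 CPM on krill oil. Its log2 fold change of 4.34 ± 0.91 depends on how counts of 0 are handled, and the gene did not pass with DESeq2.

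**Figure D2:**
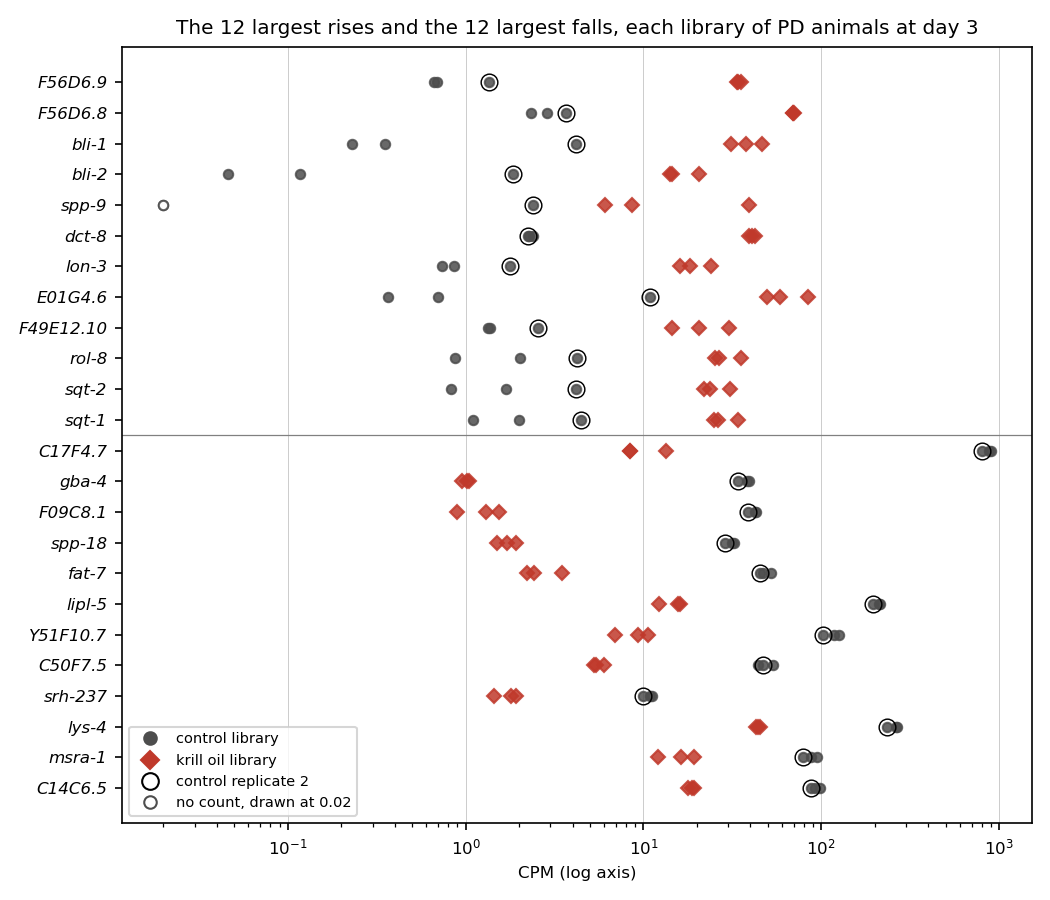
Level in CPM on a log axis of the 12 largest rises and the 12 largest falls, 1 point per library, with control libraries as grey circles, krill oil libraries as red diamonds and control replicate 2 ringed. Genes with separated diets were chosen for this plot, and control replicate 2 is the highest control of 11 of the 12 rising genes, as in E01G4.6 (10.9 CPM against 0.703 and 0.368 CPM).

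Enzymes of fatty acid desaturation and elongation mostly fell. Of 21 members tested of the list of desaturases, elongases and fatty acid synthesis, 5 rose and 13 fell (median log2 fold change -0.12). fat-7, a stearoyl-CoA desaturase that makes oleate, was at 47.1, 45 and 52 CPM in the controls and at 2.21, 3.48 and 2.42 CPM on krill oil. This was a log2 fold change of -4.15 ± 0.11 (SE, adjusted p value 9.5e-11) without overlap of the diets. Its close relative fat-6 fell by 0.66 (SE 0.07), from 154, 141 and 152 CPM to 82, 104 and 96.6 CPM. In contrast, fat-5, which desaturates palmitate, rose from 31.5, 31.3 and 30.1 CPM to 112, 98.8 and 97.3 CPM, a log2 fold change of 1.72 ± 0.05. The diets did not overlap for any of these 3 desaturases of saturated fatty acids, which moved in opposite directions.

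Further along the pathway, fat-2, which converts oleate to linoleate, fell by 1.00 (SE 0.04) from 488, 459 and 474 CPM to 226, 253 and 234 CPM. fat-4, which acts late in the synthesis of arachidonic and eicosapentaenoic acid, fell by 0.53 (SE 0.03). fat-1, the omega-3 desaturase, was at 232, 232 and 236 CPM and at 268, 230 and 220 CPM, and fat-3, the desaturase that acts between fat-2 and fat-4, at 117, 117 and 111 CPM and at 135, 117 and 121 CPM. Neither of these passed the test (log2 fold changes 0.03 ± 0.06 and 0.11 ± 0.05, adjusted p values 0.658 and 0.0883), and their diets overlapped. The elongases elo-2 and elo-5, of which the second is needed for branched-chain fatty acids, fell by 1.16 (SE 0.10) and 1.14 (SE 0.08). Fatty acid synthase, fasn-1, rose by 0.20 (SE 0.03) and acetyl-CoA carboxylase, pod-2, fell by 0.29 (SE 0.04). elo-4 rose by 0.63 (SE 0.13). elo-9 (0.42 ± 0.13) and acly-1 (0.10 ± 0.04) also passed but lost the call without control replicate 2, which left 3 enzymes that rose. The call of elo-9 was also lost without krill oil replicate 1 or 2, and that of acly-1 without any single library other than krill oil replicate 1.

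Genes of the methyl cycle and of phosphatidylcholine synthesis mostly fell. Of 26 genes tested, 4 rose and 14 fell (median log2 fold change -0.26). pmt-1 and pmt-2, the methyltransferases that make phosphocholine from phosphoethanolamine, fell by 1.04 (SE 0.05) and 1.05 (SE 0.08). pmt-1 was at 151, 152 and 158 CPM in the controls and at 66.7, 78.4 and 79 CPM on krill oil, and pmt-2 at 137, 137 and 132 CPM and at 53.6, 75 and 67.6 CPM. No krill oil library reached a control in either gene. sams-1, the S-adenosylmethionine synthetase that supplies them, fell by 0.90 (SE 0.12), from 177, 163 and 190 CPM to 68.2, 110 and 105 CPM. mthf-1, which makes the methyl donor of methionine synthase, fell by 0.68 (SE 0.03), and ahcy-1, which removes S-adenosylhomocysteine, by 0.80 (SE 0.05). cept-1, which joins phosphocholine or phosphoethanolamine to diacylglycerol, fell by 0.99 (SE 0.13). cbs-1, which draws homocysteine into cysteine synthesis, rose by 0.33 (SE 0.07), and cka-2 and pcyt-2.2, of the kinase route, rose by 0.56 (SE 0.15) and 0.41 (SE 0.13) at low levels. The more abundant cka-1 and pcyt-1 of the same route fell by 0.17 (SE 0.04) and 0.25 (SE 0.05). Neither cka-2 nor pcyt-2.2 passed with DESeq2, and the call of pcyt-2.2 was also lost without control replicate 1 or 3 or krill oil replicate 2.

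Genes of the propionate shunt, the route worms use when vitamin B12 is scarce, were lower. acdh-1, its acyl-CoA dehydrogenase and a common reporter of vitamin B12 supply, was at 718, 679 and 716 CPM in the controls and at 186, 227 and 213 CPM on krill oil. The diets did not overlap and the log2 fold change was -1.75 ± 0.06 (SE, adjusted p value 3.66e-10). hphd-1, a later enzyme of the shunt, fell by 0.71 (SE 0.04). The nuclear hormone receptor nhr-114, known from the response to low vitamin B12, fell from 40.1, 37.8 and 42.7 CPM to 7.02, 10.5 and 10.1 CPM (log2 fold change -2.12 ± 0.11), and nhr-68, an activator of the shunt, fell by 0.75 (SE 0.09). Within the canonical, vitamin B12-dependent route, pcca-1 and mce-1 rose by 0.24 (SE 0.02) and 0.39 (SE 0.06). Other members of the list related to vitamin B12 went both ways, as mmcm-1 rose and mmaa-1 and mtrr-1 fell. acdh-2, a close relative of acdh-1, went the other way, from 1.8, 2.66 and 1.61 CPM to 10.8, 11.6 and 10.6 CPM (2.42 ± 0.14). In all 9 of 17 genes of this list fell and 4 rose.

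Fatty acid oxidation changed in both directions. In mitochondria, 21 of 50 genes rose and 9 fell, and in peroxisomes 10 of 27 rose and 4 fell, beside 21.2% and 19.9% of all genes. In neither list did the share that fell exceed that of all genes. The carnitine palmitoyltransferase cpt-5 rose from 11.1, 16.7 and 12.4 CPM to 72.5, 51.7 and 55.4 CPM, a log2 fold change of 2.15 ± 0.14 with all krill oil libraries above the controls. Its relative cpt-3 rose by 3.43 (SE 0.47) from 0.664, 1.71 and 0.598 CPM to 19.2, 7.12 and 7.06 CPM, and the acyl-CoA synthetase acs-2, a target of NHR-49 in fasting, by 1.37 (SE 0.11). The enoyl-CoA hydratase ech-7 and the hydroxyacyl-CoA dehydrogenase hacd-1 fell by 1.31 (SE 0.14) and 1.46 (SE 0.11). Among acyl-CoA oxidases of the peroxisome, acox-1.2 and acox-1.6 rose by 1.2 (SE 0.06) and 1.17 (SE 0.11), whereas acox-1.3 fell from 4.68, 3.53 and 3.87 CPM to 1.15, 1.05 and 1.11 CPM (-1.86 ± 0.16). Likewise 1 peroxisomal transporter of the ABC family, pmp-4, rose by 1.29 (SE 0.09) and another, pmp-5, fell by 1.22 (SE 0.06).

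Lysosomal acid lipases moved in both directions. lipl-5 and lipl-3, both known to be induced by fasting, were among the strongest falls. lipl-5 was at 214, 195 and 210 CPM in the controls and at 12.3, 15.7 and 16.2 CPM on krill oil, a log2 fold change of -3.81 ± 0.07 (SE, adjusted p value 6.09e-12). lipl-3 was at 3.86, 3.61 and 3.77 CPM and at 0.298, 0.628 and 0.46 CPM, a log2 fold change of -3.0 ± 0.20. The diets were far apart in both. lipl-7 also fell (-0.29 ± 0.07), whereas lipl-1 rose from 15.5, 14.9 and 14.4 CPM to 19.4, 20 and 23.3 CPM (0.49 ± 0.08) and the weakly expressed lipl-4 by 1.02 (SE 0.23). lipl-6 also passed (0.59 ± 0.22), but its diets overlapped and the call was lost with DESeq2 and without control replicate 2 or 3 or krill oil replicate 1 or 2. mxl-3, which represses lysosomal lipase genes in fed worms, rose from 10.1, 13.4 and 10.7 CPM to 20.4, 19.1 and 21.4 CPM (0.83 ± 0.10), and hlh-30, the TFEB homolog that activates them, fell by 0.18 (SE 0.04). None of the 11 lips family genes tested fell. lips-6 was at 0.586, 2.62 and 0.598 CPM against 9.75, 11.3 and 9.21 CPM (2.92 ± 0.33), and lips-9 and lips-3 rose by 1.51 (SE 0.19) and 1.2 (SE 0.12). Over the whole list 9 of 24 rose and 7 fell, beside 21.2% and 19.9% of all genes.

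Sphingolipid hydrolases were split by paralog. asm-3 and asm-2, which encode acid sphingomyelinases, rose from 8.67, 9.55 and 9.35 CPM to 48.9, 44.2 and 52.6 CPM and from 7.38, 8.82 and 7.78 CPM to 46.4, 35.1 and 43.2 CPM. Their log2 fold changes were 2.40 ± 0.07 and 2.38 ± 0.11, while the third sphingomyelinase, asm-1, fell by 0.54 (SE 0.09). Of the 4 glucocerebrosidase homologs, gba-2 rose from 2.62, 3.13 and 2.3 CPM to 19.3, 14.5 and 14 CPM (2.56 ± 0.15), gba-3 fell by 0.34 (SE 0.07) and gba-4 fell as described above. gba-1 did not pass (-0.06 ± 0.13, adjusted p value 0.745), with 15.8, 15.7 and 14.3 CPM against 18.7, 12.9 and 12.5 CPM. The acid ceramidases asah-1 and asah-2 rose by 0.44 (SE 0.06) and fell by 0.36 (SE 0.06). The last member, hpo-13, fell by 0.09 (SE 0.03), a call that was lost without control replicate 1 or 2 or krill oil replicate 2 or 3. In total 4 of 10 rose and 5 fell.

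**Figure D3:**
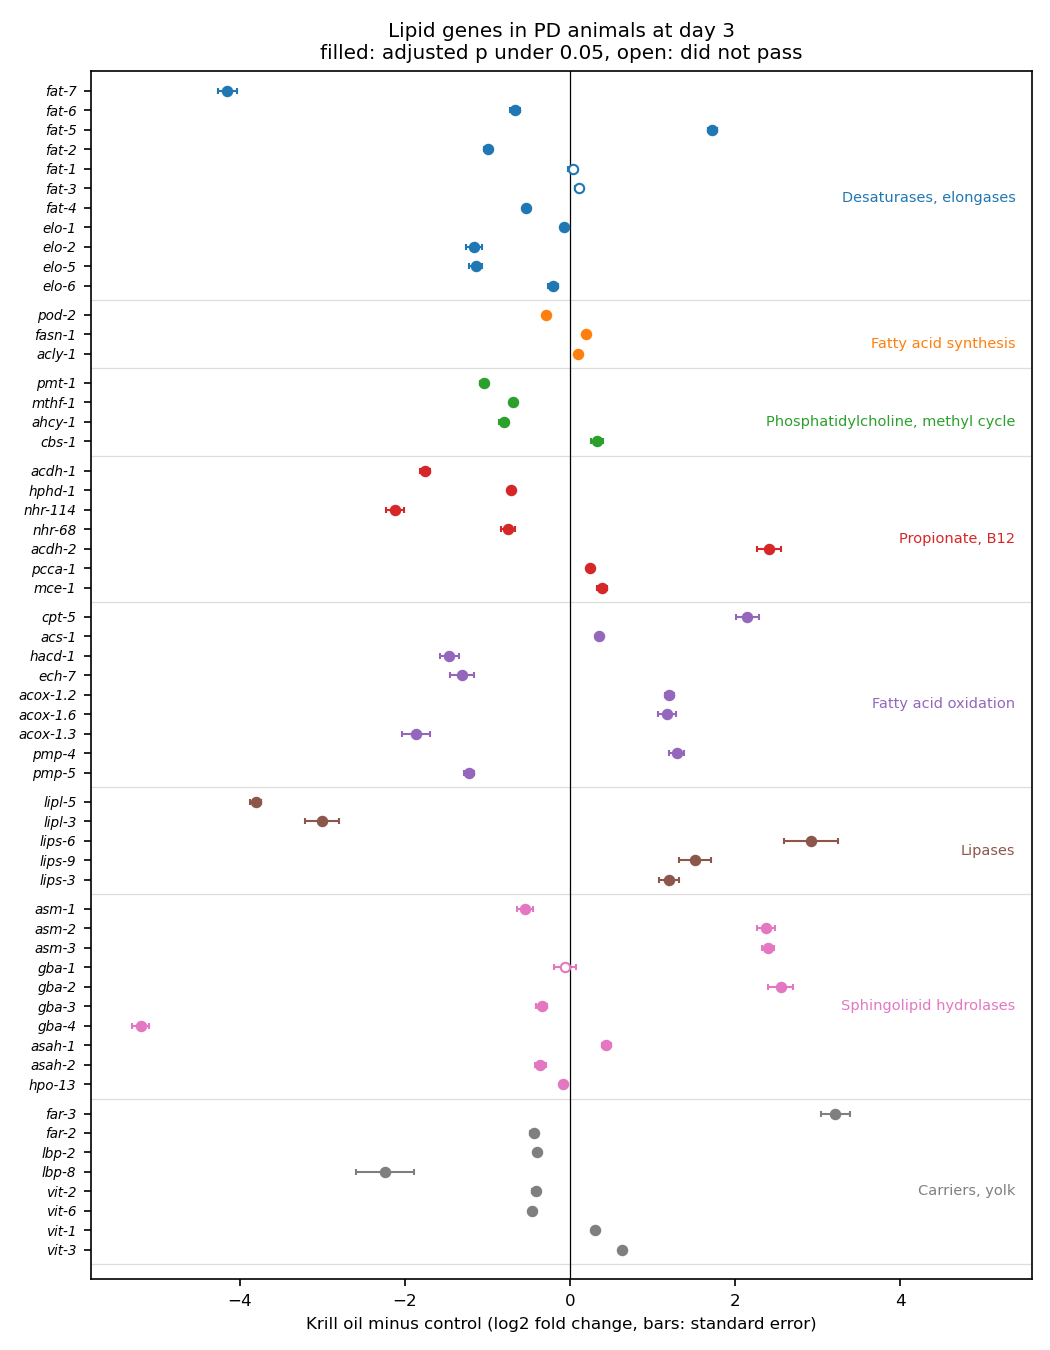
Log2 fold change (krill oil minus control) with its standard error for named lipid genes, grouped by role, with open circles for genes that did not pass the test. Most desaturases, elongases and methyl cycle genes lie left of 0, and paralogs such as fat-7 and fat-5 or gba-4 and gba-2 lie on opposite sides.

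Among lipid carriers, the fatty acid and retinol binding protein far-3 rose from 4.33, 5.83 and 4.56 CPM to 58.2, 43.5 and 36.2 CPM (3.22 ± 0.17). lbp-8, a lysosomal lipid chaperone, fell by 2.24 (SE 0.36), from 2.11, 1.6 and 2.16 CPM to 0.0851, 0.503 and 0.614 CPM. The diets did not overlap in either. The yolk lipoprotein genes changed little and in both directions. The most abundant of them, vit-6 and vit-2, fell by 0.46 (SE 0.04) and 0.41 (SE 0.04), vit-1 rose by 0.30 (SE 0.04), and vit-3 and vit-5 rose by 0.64 (SE 0.04) and 0.12 (SE 0.04), the last with an adjusted p value of 0.0311 and not without any single library other than krill oil replicate 2. vit-4 did not pass (-0.01 ± 0.04). vit-3, vit-4 and vit-5 are near-identical copies and vit-1 and vit-2 are closely similar, so their single values are uncertain. Summed over the 6 genes, vitellogenins held 129000, 124000 and 131000 CPM in the controls and 108000, 107000 and 112000 CPM on krill oil.

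Lysosomal proteases were the list with the largest share of members that fell, with 16 of 23 lower and 4 higher and a median log2 fold change of -0.43. Summed, the list held 10900, 10200 and 10700 CPM in the controls and 6870, 6390 and 6380 CPM on krill oil. The cathepsin B-like proteases cpr-1 (574, 580 and 557 CPM against 233, 202 and 212 CPM) and cpr-9 fell by 1.41 (SE 0.04) and 1.24 (SE 0.05), and the aspartyl protease asp-6 by 1.01 (SE 0.05). cpr-8, cpr-3 and cpz-2 rose by 0.83, 0.72 and 0.30 on the log2 scale. Of 29 autophagy genes 14 fell and none rose, with a median of -0.12. Those with the smallest p values were epg-2, lgg-2 and sqst-1, the last 2 being the worm homologs of LC3 and p62 (-0.45 ± 0.04, -0.30 ± 0.03 and -0.25 ± 0.03). Subunits of the vacuolar proton pump moved the other way by small amounts, with 13 of 21 higher, 2 lower and no DEG (vha-5 0.44 ± 0.04 and vha-17 -0.24 ± 0.04).

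Immune effector genes changed in both directions within each family. Of 13 lysozymes tested 4 were higher and 6 lower DEGs, beside 5.24% and 2.36% of all genes. lys-4 fell from 263, 235 and 267 CPM to 43.9, 45.1 and 42.9 CPM (-2.53 ± 0.05), and lys-7 and ilys-5 fell by 1.18 (SE 0.04) and 1.41 (SE 0.08). lys-10 had 2.38, 1.97 and 1.24 CPM in the controls and 0.0426, 0 and 0.0384 CPM on krill oil. lys-1 rose from 158, 159 and 158 CPM to 354, 367 and 371 CPM (1.2 ± 0.03), lys-2 rose by 1.26 (SE 0.05) and lys-3 by 3.26 (SE 0.40). None of these genes had overlapping diets. Of 99 C-type lectins 39 fell and 19 rose (clec-50 -1.53 ± 0.04, clec-85 -1.98 ± 0.08, clec-52 3.15 ± 0.17), and of 23 saposin-like genes 11 fell and 8 rose. In the list of other infection response genes 40 of 67 rose and 11 fell, with a median of 0.75. Members that rose included asns-2 (asparagine synthetase, 1.42 ± 0.05) and dod-3 (1.76 ± 0.09), and those that fell dod-23 (-1.24 ± 0.04), dod-24 (-1.2 ± 0.07) and irg-7 (-0.99 ± 0.03). Of 21 tested pals genes, 3 rose and 2 fell (pals-32 -2.73 ± 0.24), below the shares of all genes (21.2% and 19.9%). Of these genes 5 rose without control replicate 2 or 3 and 1 fell without control replicate 1 or 3 or krill oil replicate 3.

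Detoxification families were compared with the shares of all genes, of which 21.2% rose and 19.9% fell, and 5.24% were higher and 2.36% lower DEGs. Of 61 UDP-glucuronosyltransferases 28 rose and 10 fell, with 12 DEGs higher and none lower. Of 63 cytochromes P450 26 rose and 13 fell, with 10 DEGs higher and 7 lower. Of 36 glutathione S-transferases 11 rose and 5 fell, with 4 DEGs higher and 1 lower. ugt-66 rose from 1.6, 3.5 and 1.52 CPM to 15.9, 14.8 and 14.9 CPM (2.75 ± 0.20), cyp-35B1 by 2.37 (SE 0.18), gst-10 by 1.65 (SE 0.09) and gst-4, a common reporter of SKN-1, by 1.40 (SE 0.11). cyp-13A5 and gst-24 fell by 1.56 (SE 0.07) and 1.54 (SE 0.11). Without control replicate 1 the glutathione S-transferases that fell were 3. Antioxidant enzymes were evenly divided, with 8 of 28 higher and 9 lower, among them the methionine sulfoxide reductase msra-1 with 87.3, 79.4 and 95.1 CPM in the controls against 12, 19.3 and 16.2 CPM (-2.46 ± 0.11). Iron and heme genes also moved. The ferritin ftn-1 rose from 2.03, 2.3 and 2.07 CPM to 17.5, 18 and 13.5 CPM (2.93 ± 0.14), the heme regulator hrg-7 by 1.84 (SE 0.09) and the heme transporter hrg-1 by 1.22 (SE 0.09), whereas the more abundant ferritin ftn-2 fell by 0.33 (SE 0.04).

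Of 24 chaperone and unfolded protein genes 11 rose and 4 fell, beside 21.2% and 19.9% of all genes. The inducible hsp-70 rose from 1.09, 1.31 and 0.967 CPM to 9.79, 9.13 and 5.91 CPM (2.86 ± 0.21), and the small heat shock genes hsp-16.2 and hsp-16.41 by 1.23 (SE 0.21) and 1.38 (SE 0.22), although both have close relatives that can share reads. hsp-60, the mitochondrial chaperonin, rose by 0.25 (SE 0.03). xbp-1, of the endoplasmic reticulum response, fell by 0.30 (SE 0.03). Among insulin-like peptides ins-19 rose from 3.36, 3.17 and 2.9 CPM to 12.3, 13 and 13.2 CPM (2.03 ± 0.09), without overlap, and ins-23 fell by 1.38 (SE 0.24). Of 32 genes of that list 5 rose and 7 fell, which is near or below the shares of all genes. The count that rose was 3 without control replicate 2 or without any single krill oil library.

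Most cuticle collagens rose. Of 114 numbered collagens 94 rose and 1 fell, with a median log2 fold change of 1.47 beside 0.00252 for all genes. Of 15 strut and body shape collagens 13 rose and none fell (median 3.24), and all 6 furrow collagens rose (median 0.62). Without control replicate 2 these medians were 1.71, 4.30 and 0.59, and the counts that rose 101 of 116, 13 of 15 and 6 of 6. bli-1, which forms the struts of the adult cuticle, was at 0.351, 4.15 and 0.23 CPM in the controls and at 31.1, 46.3 and 37.9 CPM on krill oil. Control replicate 2 was the highest control yet lay below every krill oil library, and the log2 fold change was 4.5 ± 0.44. In 2 collagens at higher levels control replicate 2 lay with the other controls. col-42 was at 37.9, 37.6 and 35.6 CPM in the controls and at 119, 124 and 128 CPM on krill oil (1.74 ± 0.04), and col-80 at 151, 152 and 145 CPM and at 366, 402 and 390 CPM (1.37 ± 0.04). The 1 numbered collagen that fell, col-135, went from 28.5, 28.4 and 27.2 CPM to 7.87, 9.42 and 8.48 CPM (-1.71 ± 0.07).

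Genes of molting and of the hedgehog-related families, which in worms serve the apical matrix and molting and not a canonical hedgehog pathway, rose as well. Of 69 molting and larval cuticle genes 42 rose and 1 fell (median 0.47), and of 63 hedgehog-related and patched-related genes 47 rose and 2 fell (median 0.88). Without control replicate 2, 38 of 71 molting genes rose and 2 fell (median 0.48), and 42 of 65 hedgehog-related genes rose and 2 fell (median 0.91). The hedgehog-like gene qua-1 rose from 8.82, 8.13 and 8.52 CPM to 26.3, 33.6 and 26.7 CPM (1.77 ± 0.10), the patched homolog ptc-3 by 0.97 (SE 0.05), the patched-related ptr-18 by 1.28 (SE 0.07) and the cuticlin cut-2 by 1.49 (SE 0.07). The exceptions were fbn-1 (-0.23 ± 0.04), ptr-22 (-0.97 ± 0.13) and ptr-21 (-0.31 ± 0.05). Together with the collagens these lists held 117 of the 765 higher DEGs (15.3%) and 1 of the lower. Of 14 hypodermis markers 7 rose and 3 fell. elt-3 and lin-26, transcription factors of the hypodermis, fell by 0.30 (SE 0.08) and 0.10 (SE 0.04), calls that were both lost without control replicate 1 and that of lin-26 also without control replicate 2 or 3 or krill oil replicate 1 or 2, and col-19, the collagen that marks the adult stage, rose by 0.15 (SE 0.04). Cuticle genes mark larvae that molt and adults alike, and the part of either was not tested.

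**Figure D4:**
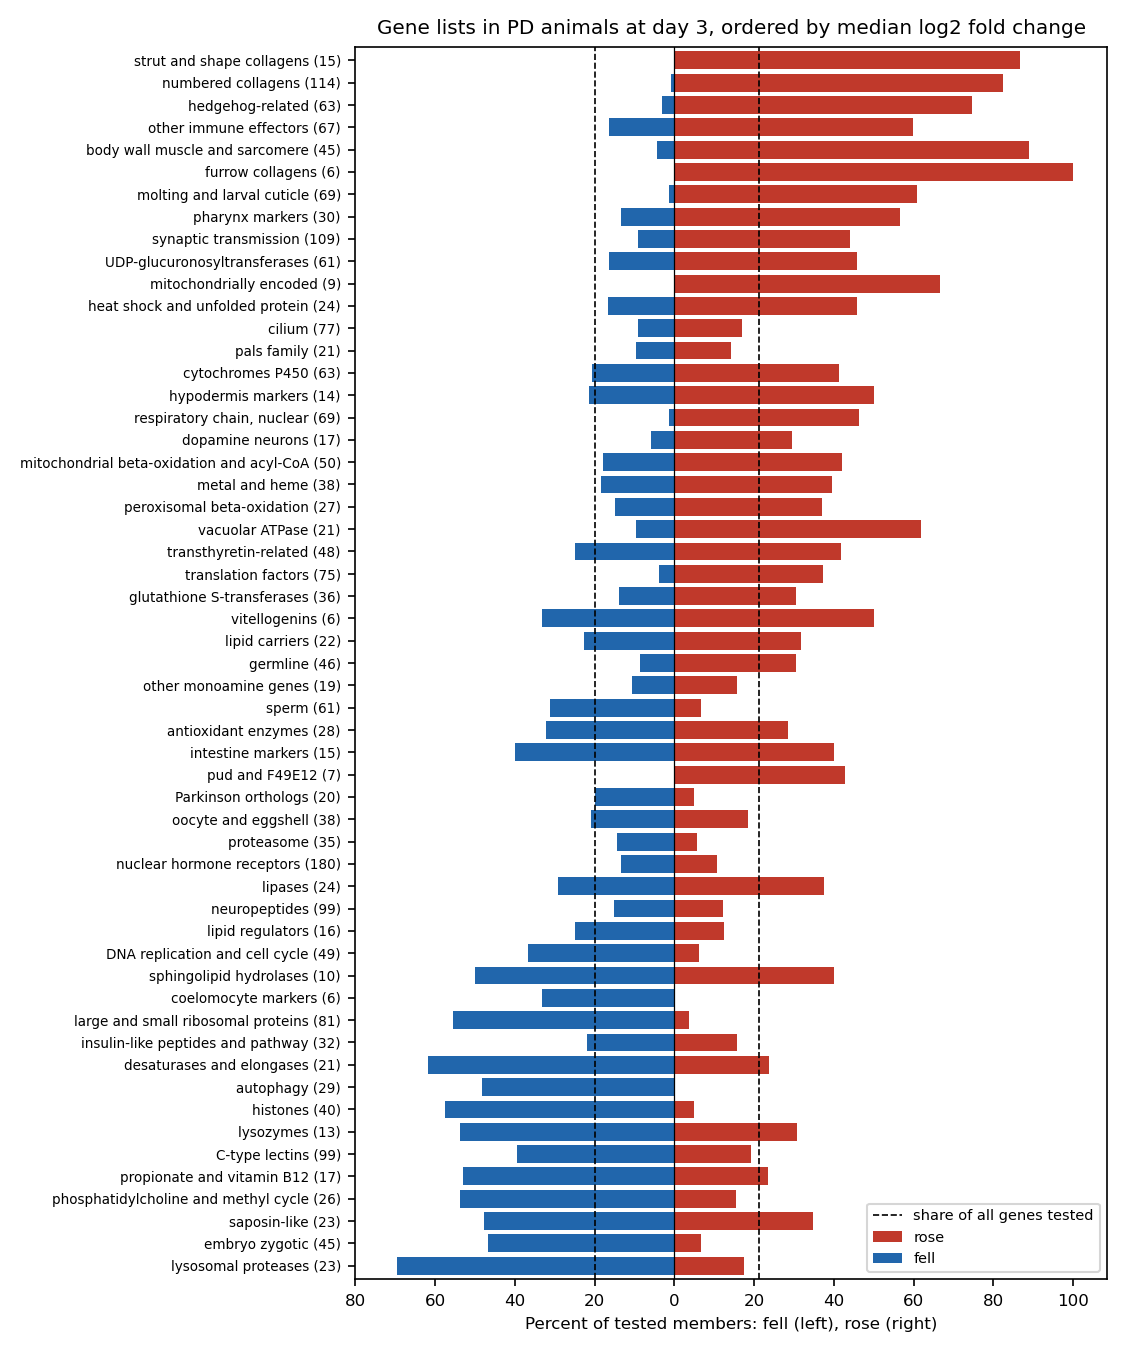
Percent of the tested members that rose (red, right) or fell (blue, left) at an adjusted p value below 0.05 in each gene list except the ribosomal RNA genes, the 3 neighbours on chromosome IV and the genes named by the study, with the number tested in parentheses and dashed lines at the share of all genes tested (21.2% and 19.9%). Of the lists drawn, furrow collagens (6 of 6) and muscle genes (40 of 45) reach furthest to the right, and lysosomal proteases (16 of 23) furthest to the left.

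Most muscle genes rose. Of 45 genes for sarcomeres, attachments and muscle regulators 40 rose and 2 fell, with a median log2 fold change of 0.67 that was 0.68 without control replicate 2. Summed, the list held 7270, 7510 and 7300 CPM in the controls and 11500, 11700 and 12000 CPM on krill oil. The myosin heavy chains unc-54 and myo-3 of body wall muscle rose by 1.03 (SE 0.03) and 1.04 (SE 0.04), tnt-2 (troponin T) by 1.23 (SE 0.04), clik-1 by 1.11 (SE 0.03) and the myosin light chain mlc-1 by 0.87 (SE 0.03). unc-54 was at 870, 942 and 920 CPM in the controls and at 1829, 1855 and 1886 CPM on krill oil, without overlap. The regulator hlh-1, the MyoD homolog, fell by 0.62 (SE 0.12), and tnt-3 by 0.24 (SE 0.05). Of 30 pharynx genes 17 rose and 4 fell (phat-4 1.66 ± 0.11, abu-14 1.24 ± 0.07 and pqn-36 -1.01 ± 0.08). Intestine markers were evenly split, 6 of 15 each way, with act-5 of the brush border higher by 0.52 (SE 0.03) and elt-2, the intestinal GATA factor, lower by 0.59 (SE 0.11). The largest fall among them was that of cpr-1, given above.

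The lists of the respiratory chain, the mitochondrial genome and translation held no DEG and moved in both directions. Of 69 nuclear genes of the respiratory chain 32 rose and 1 fell, with a median of 0.11. Of 9 protein genes of the mitochondrial genome with a name, 6 rose and none fell, with log2 fold changes from -0.93 to 0.43. COX2 went from 424, 478 and 398 CPM to 587, 596 and 570 CPM (0.43 ± 0.05), ND1 rose by 0.34 (SE 0.04) and COX3 by 0.27 (SE 0.03). ND3, ND4L and ND6 did not pass, and control replicate 3 was far from the other controls in ND4L (58.2, 68.3 and 16.2 CPM). Ribosomal protein genes fell by small amounts, 45 of 81 lower and 3 higher with a median of -0.10, while translation factors and tRNA synthetases rose, 28 of 75 higher and 3 lower with a median of 0.08.

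Dopaminergic genes were examined because the PD transgenes are made in these neurons. dat-1, the dopamine transporter whose promoter drives both transgenes, was at 1.76, 1.89 and 1.66 CPM in the controls and at 2.09, 1.05 and 2.38 CPM on krill oil. The diets overlapped and the gene did not pass (0.06 ± 0.25, adjusted p value 0.874). Neither did cat-2, tyrosine hydroxylase (-0.12 ± 0.44), cat-1, the vesicular transporter (0.03 ± 0.22), nor bas-1, the decarboxylase (0.20 ± 0.09). dat-1, cat-2 and cat-1 lay below 3 CPM in every library. A change had to be well above these errors to pass, so smaller changes were not detectable at this depth. Of the 17 genes of the list 5 rose and 1 fell, beside 21.2% and 19.9% of all genes. cat-4, GTP cyclohydrolase of tetrahydrobiopterin synthesis, rose from 30.8, 31.8 and 30.1 CPM to 61.4, 52.9 and 53.4 CPM (0.85 ± 0.06) and ptps-1, the next enzyme, by 0.33 (SE 0.08). Both act also outside neurons, cat-4 in the hypodermis. comt-4, of the catechol-O-methyltransferase family, rose by 2.34 (SE 0.19), the receptor gene dop-5 by 0.64 (SE 0.15, not with DESeq2) and the homeobox gene ceh-43 by 0.35 (SE 0.08). ceh-20 fell by 0.19 (SE 0.06), a call that was lost without control replicate 1 or 3 or krill oil replicate 1 or 2.

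Genes of synaptic transmission rose more often than they fell, 48 of 109 against 10, with a median of 0.33. Of them 3 were DEGs, beside 7.61% of all genes. The count that fell was 6 without control replicate 1 and 5 without krill oil replicate 2. unc-68, the ryanodine receptor, rose by 0.48 (SE 0.03), the potassium channel twk-18 by 0.86 (SE 0.08) and unc-80, of the sodium leak channel, by 0.49 (SE 0.05), of which the first and second are also muscle genes. Of 99 neuropeptide genes 12 rose and 15 fell (nlp-39 1.95 ± 0.13 and flp-34 -1.64 ± 0.19). Of 77 genes of the cilium list 13 rose and 7 fell, and 8 rose without krill oil replicate 2. The cilium list was matched by symbol. It holds arl and tmem genes whose place in cilia was not checked, some of them among these calls. In the neuropeptide and cilium lists these shares were below those of all genes (21.2% and 19.9%).

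Of 16 genes that the study named for neuron survival or as regulators, ceh-28 had too few counts and 15 were tested. None was a DEG. unc-10, the active zone protein RIM, rose from 11.5, 12 and 11.3 CPM to 15.7, 14.4 and 15.5 CPM (0.39 ± 0.07), and jnk-1 from 2.62, 2.7 and 2.99 CPM to 3.92, 4.48 and 4.57 CPM (0.65 ± 0.12). The diets did not overlap in either gene. cebp-1, egl-8 (phospholipase C) and ceh-48 also rose (0.39 ± 0.08, 0.13 ± 0.04 and 0.40 ± 0.13), but the call of egl-8 was lost without control replicate 1 or 2 or krill oil replicate 1 or 3, and that of ceh-48 without control replicate 2 or 3 or krill oil replicate 2 or 3. lmd-3 fell from 291, 288 and 281 CPM to 250, 248 and 254 CPM (-0.19 ± 0.03), daf-16 by 0.13 (SE 0.02), tra-1 by 0.13 (SE 0.03), efl-1 by 0.09 (SE 0.03) and cnnm-3 by 0.29 (SE 0.10), beside hlh-30 and elt-3 above. The call of cnnm-3 was lost without control replicate 1 or 3 or krill oil replicate 1 or 3, and that of efl-1 without any single library other than krill oil replicate 1. skn-1, hmg-5 (the homolog of mitochondrial TFAM) and nhr-6 did not pass (-0.04 ± 0.03, 0.04 ± 0.05 and -0.02 ± 0.13). The list was chosen by the study with these samples in hand. Its counts are fragile, with 3 that rose without control replicate 2 or krill oil replicate 3, and 4 that fell without control replicate 1.

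Markers of germline, oocytes and progeny were counted because whole animals carry them. Of 38 oocyte and eggshell genes 7 rose and 8 fell (perm-2 -0.42 ± 0.04, cpg-9 0.68 ± 0.07), which is near the shares of all genes (21.2% and 19.9%). Of 46 germline genes 14 rose and 4 fell, and of 49 replication and cell cycle genes 3 rose and 18 fell. None of the genes of these 3 lists was a DEG but for 1 germline gene. The germline genes that rose were 7 without control replicate 1 and 9 without control replicate 3. Of 45 genes first expressed in embryos 21 fell and 3 rose, with a median of -0.39 (vet-6 -0.88 ± 0.05, sdz-30 -0.97 ± 0.08, sdz-24 1.68 ± 0.12). Their summed level was 961, 984 and 979 CPM in the controls and 877, 878 and 892 CPM on krill oil. Of 61 sperm list genes 19 fell and 4 rose. The count that rose was 9 without control replicate 1 and 1 without krill oil replicate 2 or 3. Of those that fell 13 belong to the nspc family, whose members are near-identical and therefore uncertain one by one. fog-3 and fog-1, which specify sperm fate, fell by 2.16 (SE 0.18) and 0.66 (SE 0.05). The part of embryos, larvae or germ cells in other results was not tested.

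The response was then compared with that of wild type animals of the same age and of PD animals at the other ages, all of which use the same 6 libraries on one side. In the strain interaction 471 of 15299 genes differed (3.08%), with an adjusted p value below 0.05 and a difference above 1 in log2. For 64 of these (0.418%) PD animals had the more positive effect and for 407 (2.66%) the less positive. Of the higher DEGs, 544 (71.1%) were also higher DEGs in wild type, which are 34.6% of the DEGs higher there, and of the lower DEGs 143 (41.4%, and 67.1% of those in wild type). The 3 lower DEGs that were higher in wild type, F22F1.2, F23B2.7 and Y53F4B.48, were named for this after their values were seen, and the diets overlapped in the last.

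Of the 24 genes with the largest changes, 5 differed between strains. These 24 were chosen for large effects in the same libraries of PD animals at day 3. This choice favours larger effects there, here and in the comparison by age below. The 3 neighbouring genes on chromosome IV rose more in PD animals, F56D6.9 by 5.22 against 2.34 in wild type, F56D6.8 by 4.53 against 1.92 and dct-8 by 4.15 against 1.29. The differences were 2.88 ± 0.23, 2.61 ± 0.19 and 2.86 ± 0.18 (SE), with adjusted p values of 8.43e-06, 5.23e-06 and 3.4e-06. gba-4 and F09C8.1 fell more in PD animals, by 5.20 against 3.56 and by 5.04 against 3.87 on the log2 scale (differences -1.65 ± 0.29 and -1.17 ± 0.29). For the other falling genes of this set the fold changes of the strains were similar, as for fat-7 (-4.15 and -4.73, difference 0.58 ± 0.30) and lipl-5 (-3.81 and -4.10, difference 0.29 ± 0.23). Among the other rising genes some were close, as lon-3 (4.06 and 4.89), and some were far apart. E01G4.6 had 3.91 against 7.86 in wild type, spp-9 4.34 against 7.23 and F49E12.10 3.61 against 1.5. These differences did not pass the interaction test (adjusted p values 0.0705, 0.341 and 0.184), and their errors were large. For 38 of 114 numbered collagens, 16 of 63 hedgehog-related genes, 10 of 69 molting genes and 5 of 15 strut and shape collagens the effect was less positive in PD animals, and for 2, 0, 0 and 0 more positive, beside 2.66% and 0.418% of all genes. Most members of these lists did not pass. Without control replicate 2, an alternative chosen after seeing the data, the numbers less positive were 17, 9, 7 and 4, beside 1.83% of all genes. Both fits had 2 of 6 furrow collagens less positive. bli-1 and bli-2 (4.5 against 7.30 and 4.48 against 9.27) did not pass, with adjusted p values of 0.149 and 0.092, and control replicate 2 is among these libraries.

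By age, 1237 of 15613 genes differed between day 3 and day 1 in PD animals (7.92%), with 3.9% more positive and 4.02% less positive at day 3. Between day 3 and day 6 1708 differed (10.9%), with 1.25% more positive and 9.69% less positive at day 3. The fall of C17F4.7, lipl-5, gba-4 and fat-7 was present at all ages. C17F4.7 changed by -5.94 at day 1 and -5.17 at day 6. fat-7 fell most at day 1 (-6.06) and least at day 6 (-2.70), and both differences from day 3 passed. lys-4 passed at day 3 (-2.53) and not at day 1 (-0.22, adjusted p value 0.414) or day 6 (0.23, adjusted p value 0.0964), and both differences from day 3 passed (-2.31 ± 0.19 and -2.73 ± 0.20). C14C6.5 did not pass at day 1 (-0.04, adjusted p value 0.888), where the difference from day 3 was -2.28 ± 0.15, and fell by 1.34 at day 6. msra-1 fell by 4.33 at day 1, by 2.46 at day 3 and had a value of 0.02 at day 6. dct-8, F56D6.8 and F56D6.9 changed little at day 6 (0.37, 0.60 and 0.31), with differences of 3.81 ± 0.26, 3.97 ± 0.24 and 4.94 ± 0.29. At day 1 dct-8 and F56D6.9 also rose, by 3.89 and 3.25, and both passed, while F56D6.8 had too few counts there. The difference between day 3 and day 1 did not pass for these 3 genes (0.25 ± 3.85, -0.30 ± 0.89 and 1.96 ± 1.03), where the errors are large.

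For 54 of 114 numbered collagens, 11 of 15 strut and shape collagens and 22 of 45 muscle genes the effect was more positive at day 3 (3.9% of all genes), and for 4, 1 and 1 less positive (4.02% of all genes). For furrow collagens the first number was 1 of 6, and of 69 molting genes 9 were more and 5 less positive. bli-1, with -0.72 at day 1, differed by 5.24 ± 1.23. Without control replicate 2 the effect was more positive for 69 numbered collagens, 12 strut and shape collagens and 22 muscle genes. Compared with day 6, the effect was less positive at day 3 for 61 of 114 numbered collagens (9.69% of all genes), or for 36 without control replicate 2 (8.3%), and 37 of 61 sperm list genes also had a less positive effect at day 3. The DEGs compared next were chosen in the same day 3 libraries. Of the 765 higher DEGs, 104 (13.6%) were also higher DEGs at day 1 and 28 were lower DEGs there. At day 6, 489 (63.9%) were also higher DEGs and 4 were lower DEGs. Of the 345 lower DEGs, 85 (24.6%) were also lower DEGs at day 1 and 10 were higher DEGs there. At day 6, 48 of the lower DEGs (13.9%) were also lower DEGs, which are 54.5% of the 88 lower DEGs of that age. Another 20 of the lower DEGs were higher DEGs at day 6, where higher DEGs numbered 1874 in all. No excess over all genes is claimed for any of these counts. Among these 20 were acox-1.3 (-1.86 at day 3 and 3.09 at day 6), col-135 (-1.71 and 2.37) and daf-36, the oxygenase of dafachronic acid synthesis (-1.27 and 1.1). In the opposite direction cyp-14A3 rose by 3.37 at day 3 and fell by 1.2 at day 6.

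**Figure D5:**
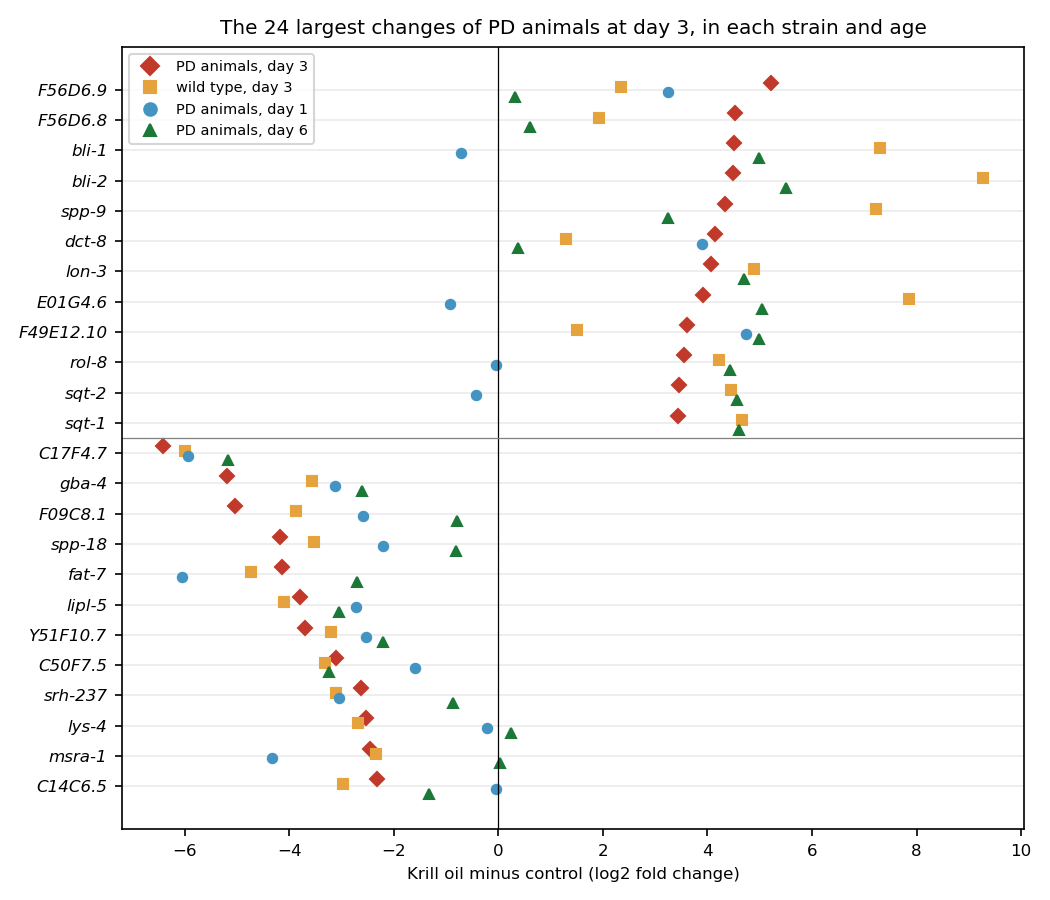
Log2 fold change (krill oil minus control) of the 24 genes with the largest changes in PD animals at day 3 (red diamonds), beside wild type at day 3 (orange squares) and PD animals at day 1 (blue circles) and day 6 (green triangles), with no symbol where a gene had too few counts. F56D6.9, F56D6.8 and dct-8 lie further right in PD animals at day 3 than in wild type or at day 6, and lys-4 lies near 0 at days 1 and 6.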

How the data were processed

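RNA was extracted from whole worms, depleted of ribosomal RNA and sequenced as paired reads of 71 bases. Per the paper and the submitters' processing notes, reads were aligned with STAR 2.7.10a to WBcel235 (annotation release 96), and SAMtools and UMI-tools were used to remove duplicates. The files deposited by the authors hold raw counts per gene, without normalization. STAR gene counts are named for the study's age prediction, but the program that made the deposited counts and whether it used strand are not given in the sources used here, so reads of overlapping genes cannot be told apart. Replicates are numbered in the labels and called biological in the study, and the sequencing run of each library is not given in the sources used here.

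Of 46778 identifiers, 46603 were found in annotation release 115 of WBcel235, which gave symbols and coordinates, and 43824 had a symbol. Genes of the mitochondrial genome were named by coordinates within 5 bases. The 6 libraries (totals in the report) were fitted with edgeR 4.0.16 in R 4.3.3 (filterByExpr, TMM factors, quasi-likelihood test, Benjamini-Hochberg adjustment over all genes tested). Rose and fell mean an adjusted p value below 0.05, and DEGs also have an absolute log2 fold change above 1. Fold changes are krill oil minus control, with the standard error from the F statistic. Differences of effects were tested as interactions over 12 libraries (strain) or 18 (age). Scripts were tested on simulated data.

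Genes named are the 12 largest rises and falls among DEGs with at least 5 CPM on average and no overlap, up to 3 members in each direction of each of 58 lists by p value, and all members of 6 lists (study, dopamine, vitellogenin, desaturase, sphingolipid and mitochondrial). The members and lists were chosen with earlier results of these data known. pmt-2, sams-1, cept-1, mmcm-1, mmaa-1, mtrr-1, cpt-3, acs-2, lys-10, hsp-16.2, hsp-16.41, unc-54, myo-3, elt-2, col-19, fog-3, daf-36, cyp-14A3, lipl-1, lipl-4, lipl-6, lipl-7, cka-1, pcyt-1, and the DEGs named for overlapping or opposite values fall outside the rule and were chosen after their values were seen. Alternatives were DESeq2 1.42.0, RLE factors, a weaker filter, all 36 libraries, a replicate block, removal of ribosomal RNA or cuticle genes, and each of the 6 libraries left out. Interactions without control replicate 2 were counted by list after seeing the data. Sequences were not used here.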

Additional observations from a re-analysis of the deposited data

Results flagged for a closer look

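Of the 24 genes with the largest changes in PD animals at day 3, those named here had a krill oil effect that differed from that in another group by the interaction test of edgeR (adjusted p value below 0.05 and an absolute difference above 1 in log2). All comparisons use the same 6 libraries of PD animals at day 3 on one side, and no explanation was tested. The 24 genes were chosen for large effects in those libraries, which favours larger effects on that side.

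Against wild type of the same age, the difference (PD animals minus wild type, log2) was 2.88 for F56D6.9, 2.86 for dct-8 and 2.61 for F56D6.8, the neighbouring genes on chromosome IV. It was -1.65 for gba-4 and -1.17 for F09C8.1, both of which fell more in PD animals.

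Against PD animals at day 1, the difference (day 3 minus day 1, log2, with SE) was positive for some cuticle collagens. It was 5.24 ± 1.23 for bli-1, 5.22 ± 1.57 for bli-2, 4.38 ± 1.15 for sqt-1, 3.89 ± 0.95 for sqt-2 and 3.61 ± 1.06 for rol-8, and 4.87 ± 1.42 for E01G4.6. These errors are large, and bli-2 and sqt-1 had too few counts for a fold change at day 1. Control replicate 2, which stood apart from the other controls, is among these libraries. The fall was larger at day 3 for F09C8.1 (-2.44), lys-4 (-2.31), C14C6.5 (-2.28), gba-4 (-2.07), spp-18 (-1.97), Y51F10.7 (-1.15) and lipl-5 (-1.07). For fat-7 (1.91) and msra-1 (1.87) the fall was smaller at day 3.

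Against PD animals at day 6, the difference (day 3 minus day 6, log2) was 4.94 for F56D6.9, 3.97 for F56D6.8 and 3.81 for dct-8. The effect at day 3 was more negative for F09C8.1 (-4.22), spp-18 (-3.33), lys-4 (-2.73), gba-4 (-2.55), msra-1 (-2.45), srh-237 (-1.73), Y51F10.7 (-1.45), fat-7 (-1.41) and C17F4.7 (-1.22).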

How the results depend on the processing

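The count of DEGs was 1017 with DESeq2, 1109 with RLE factors, 1349 with a filter on genes without any count, 1192 with all 36 libraries in one fit, 1118 without ribosomal RNA genes and 986 without the cuticle, molting, hedgehog-related and sperm lists. Without 1 of the 6 libraries of PD animals at day 3 it ranged from 1114 to 1213, with 741 to 839 higher, 340 to 375 lower, 2545 to 2804 that rose and 2342 to 2611 that fell. Of the 1110 DEGs, 88.6% to 99.6% remained DEGs under these settings, and 93.7% without control replicate 2. Genes that rose numbered 2337 with all 36 libraries in one fit and 2218 with DESeq2 instead of 3096. Genes that fell numbered 1902 and 2121 instead of 2909, and the cause was not tested. Genes that differed between strains numbered 330 to 399 without 1 of these libraries (those of the other groups were all kept), those between day 3 and day 1 1098 to 1239, and those between day 3 and day 6 1466 to 1642. No result reversed. Of 352 genes named by the rule, 59 lost their call with all 36 libraries in one fit, 27 with DESeq2 and 13 to 22 without 1 library. Among the named genes, fasn-1, elo-4, acly-1, hpo-13, hlh-30, vit-1, vit-5, vha-17, sqst-1, fbn-1, ptr-22, tnt-3, elt-3, lin-26, dop-5, ceh-20, cebp-1, tra-1, egl-8, ceh-48, efl-1, cnnm-3, lipl-1, lipl-6 and pcyt-1 did not pass with all 36 libraries. With DESeq2 spp-9, cka-2, pcyt-2.2, elo-9, acly-1, hpo-13, lin-26, dop-5, ceh-20, egl-8, ceh-48, efl-1, cnnm-3 and lipl-6 did not.

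With the replicate number as a block 1109 genes were DEGs, 768 higher and 341 lower, and 11 named genes lost their call. Libraries with the same number did not deviate together (correlations -0.00869, 0.0155 and -0.0195), so the numbers were not taken as pairs. The promoter motif alternative was not run, since no promoter sequences were used here. Depth limits the weakly expressed genes, as 482 higher and 231 lower DEGs had a mean below 5 CPM.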

Other observations

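Gene families outside the lists above were counted after their values were seen, so they are descriptions, to be read beside 21.2% that rose and 19.9% that fell among all genes. Of 93 fbxb genes tested, which encode F-box proteins, 38 fell and none rose. The median log2 fold change of the family was -0.46, and 5 genes were lower DEGs, beside 2.36% of all genes. Of 106 genes of the related fbxa family 12 rose and 16 fell. Astacin proteases of the nas family, some of which act in molting, rose in 16 of 29 cases and fell in 2, with a median of 0.62. All 7 idpc genes rose.

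DEGs were not spread evenly over the chromosomes. On chromosome V 7.49% of the genes tested were higher DEGs and 4.04% lower DEGs, on chromosome X 6.36% and 2.26%, and on chromosome III 2.86% and 1.01%. Of 444 pseudogenes tested, 10 were higher and 22 lower DEGs, and of 13739 protein-coding genes 749 and 303, beside 5.24% and 2.36% of all genes. Neighbouring genes are not independent, and no test was made.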
